A study of Homo sapiens with 4 samples.

Results

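Chemokines are small secreted proteins that attract leukocytes through seven-helix receptors, and colony-stimulating factors drive the growth and activation of myeloid cells. This account covers 10 of the 34675 genes measured, chosen by symbol: the CXC chemokine genes IL8 (CXCL8), CXCL1, CXCL2, CXCL3 and CXCL5, the CC chemokine genes CCL2 and CCL5, the growth factor genes CSF2 and CSF3, and CXCR4, a chemokine receptor gene. Cells were MDA-MB-231, an established mesenchymal-like line of triple-negative breast cancer. The LKB1 line stably carried pcDNA-FLAG-LKB1 wildtype, which expresses the tagged kinase encoded by STK11, and the vector line carried pcDNA-Vector. Total RNA from cells grown on plastic was sequenced in 2 libraries per line, 4 in all. The labels say neither whether the 2 libraries of a line were separate cultures nor whether a line was a clone, so a p-value here reflects how far the libraries of a line differ, which may be technical variation alone. Titles of the LKB1 libraries read fmRNA where those of the vector libraries read mRNA, and 1 LKB1 library has another run tag than the other 3. The title difference cannot be told apart from the groups. The run tag differs within the LKB1 group, but without values per library its part in the results was not tested.

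As background, the 5 CXC chemokines carry the ELR motif, bind CXCR1 or CXCR2 and draw neutrophils, and several also promote the growth of blood vessels. CCL2 attracts monocytes through CCR2, and CCL5 attracts T cells and monocytes. CSF2 encodes GM-CSF, which acts on granulocytes and macrophages, and CSF3 encodes G-CSF, which drives neutrophil production. CXCR4 binds CXCL12 and is known for guiding tumour cells to organs rich in that ligand. Many of these ligand genes are induced through NF-kB and AP-1, and their mRNAs turn over fast. LKB1 activates AMPK and related kinases.

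All values rest on a single comparison deposited by the authors, with no value per library. Its header does not name the direction, which was read as LKB1 over vector because STK11 was above 1 (2112 reads in the LKB1 line, 1321 in the vector line, log2 fold 0.62, adjusted p = 0.00105 by the authors' deposited table). That call was lost with a coefficient of variation of 0.2 between libraries assumed for every gene (adjusted p = 0.451), and STK11 reads do not separate plasmid from endogenous transcripts. Read totals given below add both libraries of a line and were recovered from the deposited folds, and the LKB1 line was 1.04 times as deep as the vector line. Genes listed as markers of the line (VIM, CD44, EGFR, KRT18, KRT8, AXL and PLAUR) were all measured at 40 reads or more. So were 14387 genes in all, and the identity of the cells was not tested. Of these markers PLAUR was lower (log2 fold -0.55, adjusted p = 0.0143) and AXL higher (log2 fold 0.42, adjusted p = 0.0387) by the authors' deposited table. The PLAUR call was also lost in the negative binomial test with a variation of 0.2 assumed (adjusted p = 0.640), and AXL had no recovered total for that test. CDKN2A, known to be homozygously deleted in MDA-MB-231, had 3 reads in the LKB1 line and 32 in the vector line (adjusted p = 0.000111 by the authors' deposited table). Reads of a gene that the named line lacks were therefore present mainly in the libraries labelled vector. Without values per library it is not known how these reads were split between those libraries, and leaving out both would leave no comparison.

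Most of the CXC chemokine genes, CSF3 and CXCR4 were lower in the LKB1 line. At an adjusted p under 0.05 by the authors' deposited table, 6 of the 10 genes fell (IL8, CXCL1, CXCL2, CXCL3, CSF3 and CXCR4), none rose, and CXCL5, CCL2, CCL5 and CSF2 did not pass. Over all 34675 genes 5.79% were called and 3.24% were called lower. The 10 genes were chosen with earlier results of these data known, so setting them beside such shares is no test of the family. Of the 14387 genes with at least 40 reads 6.86% were called lower, and 7 of the 10 genes had that many reads. CXCL5, CCL2 and CCL5 did not. The median log2 fold of the 10 genes was -1.27, beside -0.04 over the 28242 genes with reads. With a fold of at least 2 required as well, 5 of the 10 genes fell, CXCL2 dropping out, against 1.99% of all genes. In bulk RNA, fewer cells that express a gene and less RNA per cell cannot be told apart.

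**Figure D1:**
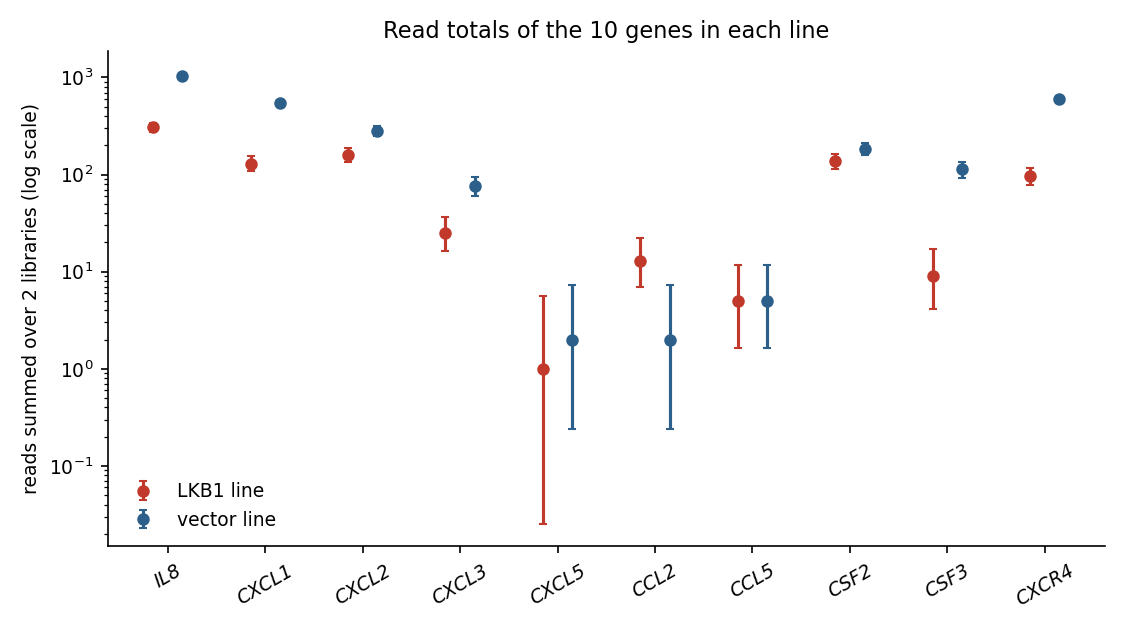
Reads of each of the 10 genes in the LKB1 line (red) and the vector line (blue), summed over 2 libraries on a log axis. Bars are exact 95% Poisson intervals of counting error only. The bars of the lines lie apart for IL8, CXCL1, CXCL2, CXCL3, CSF3 and CXCR4 and overlap for CXCL5, CCL2, CCL5 and CSF2.

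The promoters of the CXC genes are shown first because they share a feature that the choice of genes did not use. Of the 10 genes 7 had a window in the RefSeq promoter table (GRCh38.p14), IL8 under its current symbol CXCL8, and CXCR4 had 3 windows. The 110 bases before the annotated start follow, 5′ to 3′ on the strand of the gene, with capitals for kappaB matches (both the core GGAATTTCC and the longer kappaB consensus), the CK-1 core GAGATTCCA and the TATA box TATAAA.
IL8 (chr4:73740459-73740568, plus strand): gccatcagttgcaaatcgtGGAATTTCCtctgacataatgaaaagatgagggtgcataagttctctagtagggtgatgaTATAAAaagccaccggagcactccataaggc
CXCL1 (chr4:73869283-73869392, plus strand): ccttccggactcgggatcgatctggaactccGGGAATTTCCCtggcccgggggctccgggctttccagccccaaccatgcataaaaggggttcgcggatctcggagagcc
CXCL2 (chr4:74099196-74099305, minus strand): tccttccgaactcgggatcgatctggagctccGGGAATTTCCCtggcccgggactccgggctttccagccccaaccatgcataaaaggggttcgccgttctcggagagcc
CXCL3 (chr4:74038690-74038799, minus strand): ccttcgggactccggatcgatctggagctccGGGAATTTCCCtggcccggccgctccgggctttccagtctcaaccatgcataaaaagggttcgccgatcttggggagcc
CXCL5 (chr4:73998678-73998787, minus strand): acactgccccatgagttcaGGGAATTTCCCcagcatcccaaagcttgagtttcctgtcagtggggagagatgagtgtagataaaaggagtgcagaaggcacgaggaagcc
CSF2 (chr5:132073679-132073788, plus strand): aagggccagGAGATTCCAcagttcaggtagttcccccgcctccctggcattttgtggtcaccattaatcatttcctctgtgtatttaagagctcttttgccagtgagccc

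The longest run of bases that all 5 CXC promoters held on the gene's strand within 250 bases before the start was GGAATTTCC, the kappaB core. It began 91 bases before the start in IL8, 78 in CXCL1, 77 in CXCL2, 78 in CXCL3 and 90 in CXCL5. Searched on both strands, this core occurred in 145 of 35116 promoter windows (0.413%). The core equals the run taken from these promoters, so its rarity is no separate result about them. The longer kappaB consensus (GGGRNNYYCC, with R for A or G, Y for C or T and N for any base) occurred in 9.96%. That consensus had 2 overlapping matches in each of CXCL1, CXCL2, CXCL3 and CXCL5 and 0 in IL8. CXCL1, CXCL2, CXCL3 and CXCL5 shared the longer GGGAATTTCCC, which overlaps the core. The longest run common to CXCL1, CXCL2 and CXCL3 was the 23-base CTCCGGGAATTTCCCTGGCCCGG. The 3 of the 35116 windows that held it on that strand were those of these same genes. Over the aligned columns of the 110 bases shown, gaps counted as differences, CXCL1 was 93.7% identical to CXCL2 and 90.0% to CXCL3, whereas IL8 was 46.0% identical to CXCL1. An AP-1 site (TGANTCA, both strands) lay 137 bases before the start of IL8 and occurred in 6.57% of windows. No core was found in the windows of CSF2 or CXCR4. Of 7 other CXC, C and CX3C chemokine genes with a window, 3 held the core: CXCL10, CXCL11 and CXCL6. CXCL10 and CXCL11, with few reads, were not called (log2 folds 0.23 and 1.06), and CXCL6 had no reads. These are matches of letters, and CXCL5, with the same core as its neighbours, had 3 reads in all.

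IL8 (ENSG00000169429.6, chromosome 4, 74606223 to 74609433, plus strand, hg19), the neutrophil attractant interleukin 8, had 306 reads in the LKB1 line and 1040 in the vector line. It was 3.53-fold lower by the authors' deposited table (log2 fold -1.82, adjusted p = 4.25e-22), and the depth-adjusted ratio of LKB1 to vector was 0.283 with an exact 95% counting interval of 0.248 to 0.322. IL8 had the most reads of the 10 genes in both lines. Its place among 16794 protein-coding genes ordered by reads per kb of exon was at percentile 73.4 in the LKB1 line and 91.6 in the vector line.

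CXCL1 (ENSG00000163739.4, chromosome 4, 74735110 to 74736959, plus strand), first described as a melanoma growth factor and acting through CXCR2, had 130 reads in the LKB1 line and 540 in the vector line. The authors' deposited table put it 4.31-fold lower (log2 fold -2.11, adjusted p = 3.45e-17), with a counting interval of the ratio of 0.190 to 0.281. Of the CXC genes it fell most.

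CXCL2 (ENSG00000081041.7, 74962793 to 74965010, minus strand), a close paralog with the same receptor, had 159 and 284 reads in the LKB1 and vector lines. Its fall was 1.86-fold in the authors' deposited table (log2 fold -0.89, adjusted p = 0.0155) and was lost with a variation of 0.2 assumed (adjusted p = 0.135). CXCL3 (ENSG00000163734.4, 74902306 to 74904524, minus strand), the third of these paralogs, had 25 reads in the LKB1 line and 76 in the vector line. It was 3.14-fold lower by the authors' deposited table (log2 fold -1.65, adjusted p = 0.00236). The counting interval of the CXCL2 ratio, 0.441 to 0.656, lay above that of CXCL1, while that of CXCL3, 0.193 to 0.503, overlapped both. CXCL2 made up 25.6% of the 621 CXC reads of the LKB1 line (exact binomial interval 22.2 to 29.2%) and 14.6% of the 1942 CXC reads of the vector line (13.1 to 16.3%). CXCL1 made up 20.9% in the LKB1 line and 27.8% in the vector line. The order of CXCL1 and CXCL2 by reads per kb thus differed, at 96.5 and 102 in the LKB1 line and 417 and 189 in the vector line, although the first pair lies within counting error. No test of a difference between the folds of 2 genes was run, since no spread between libraries is known.

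CXCL1, CXCL2 and CXCL3 are near-identical in places, so the split of reads between them is uncertain. In GENCODE 29 transcripts 4.81% of the 50-base stretches of CXCL1, 12.5% of those of CXCL2 and 6.01% of those of CXCL3 also occurred in another gene, mostly in one another. Summed, the 3 genes had 314 reads in the LKB1 line and 900 in the vector line, a depth-adjusted ratio of 0.336 (counting interval 0.294 to 0.382). This ratio does not depend on how reads were split among the 3 genes. It could still depend on whether shared reads were dropped or counted more than once, which is not known. IL8, CCL2, CSF2, CSF3 and CXCR4 shared no such stretch. CXCL5 (ENSG00000163735.6, 74861359 to 74864496, minus strand), which encodes the epithelial neutrophil attractant ENA-78, had 1 read in the LKB1 line and 2 in the vector line. The ratio was 0.481, and its counting interval ran between 0.00815 and 9.24, so no difference was detectable at this depth (adjusted p = 1 by the authors' deposited table).

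The 4 lower CXC genes lie in a stretch of 359 kb, and the genes around them were set beside them. Between IL8 and CXCL2 the remaining genes with reads were PF4, with 2 reads in the LKB1 line and 0 in the vector line, and a small RNA gene of the SRP family with 1 and 3. Of the 20 nearest genes with reads outside the stretch 2 were called lower and 0 higher in the authors' deposited table, and the median log2 fold of the 10 with at least 40 reads was -0.44. Called lower were 3.24% of all genes and 6.86% of those with at least 40 reads. The 2 called neighbours were far off, with gene starts at -1459.5 kb (ADAMTS3) and 1252.1 kb (PARM1) from the start of IL8. Those called were ADAMTS3, a procollagen protease gene, with 41 reads in the LKB1 line and 103 in the vector line (log2 fold -1.38, adjusted p = 0.00149), and PARM1, with 4 and 65 (log2 fold -3.99, adjusted p = 3.28e-09). The growth factor genes EREG and AREG, between the cluster and PARM1, were not called, at log2 folds of 0.16 (adjusted p = 1) and -0.91 (adjusted p = 0.596, uncertain because the table also lists its copy AREGB). MTHFD2L, the gene next to CXCL2, was not called either (log2 fold -0.41, adjusted p = 0.676).

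CCL2 (ENSG00000108691.4, chromosome 17, 32582237 to 32584222, plus strand), the monocyte attractant MCP-1, had 13 reads in the LKB1 line and 2 in the vector line. The ratio was 6.25, and its counting interval ran between 1.42 and 57.1, and it did not pass the test (log2 fold 2.51, adjusted p = 0.131 by the authors' deposited table). It was the only one of the 10 genes with more reads in the LKB1 line. CCL5 (ENSG00000161570.4, chromosome 17, 34198495 to 34207797, minus strand), or RANTES, had 5 reads in each line, with a ratio of 0.962 and a counting interval of 0.221 to 4.18. Of its 50-base stretches 13.9% also occurred in other genes, and an antisense gene that spans it was listed with no reads. Both CC genes were thus near the lower limit of these libraries, and a change of up to several fold in CCL5 was not detectable.

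CSF3 fell, and CSF2 did not pass the test. CSF3 (ENSG00000108342.8, chromosome 17, 38171614 to 38174066, plus strand) had 9 reads in the LKB1 line and 113 in the vector line. It was 12.7-fold lower by the authors' deposited table (log2 fold -3.67, adjusted p = 7.84e-14), the largest fall of the 10 genes, with a counting interval of the ratio of 0.0341 to 0.151. CSF2 (ENSG00000164400.4, chromosome 5, 131409483 to 131411859, plus strand) had 137 reads in the LKB1 line and 185 in the vector line. Its log2 fold of -0.49 did not pass the test (adjusted p = 0.417 by the authors' deposited table), and the counting interval of its ratio was 0.567 to 0.893. CSF2 therefore made up 93.8% of the reads of this pair in the LKB1 line (88.6 to 97.1%) and 62.1% in the vector line (56.3 to 67.6%).

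Genes on either side of the other loci were listed in the same way, to be read beside the 5.79% of all genes called in either direction. Of the 20 nearest genes with reads around CSF3 1 was lower, NR1D1, a nuclear receptor gene of the circadian clock (log2 fold -0.77, adjusted p = 0.00253), while MED24 and PSMD3, its close neighbours, were at 0.05 and 0.10 (adjusted p = 1 for both). The median of the 14 with at least 40 reads was -0.01. Around CSF2 1 of 20 was lower (CHSY3, log2 fold -1.88) and 1 higher (FNIP1, which encodes a folliculin and AMPK partner, log2 fold 0.45). Around CXCR4 1 of 20 was higher (SPOPL, log2 fold 0.59) and 0 were lower, with a median of 0.25 over 9 genes. Around CCL2 and around CCL5, 0 of 20 were called. Of the called neighbours, NR1D1 began 77.4 kb from the start of CSF3 and SPOPL 2387.5 kb from that of CXCR4. From the start of CSF2, CHSY3 began at -2169.3 kb and FNIP1 at -647.9 kb.

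CXCR4 (ENSG00000121966.6, chromosome 2, 136871919 to 136875735, minus strand) had 96 reads in the LKB1 line and 602 in the vector line. In the authors' deposited table it was 6.51-fold lower (log2 fold -2.70, adjusted p = 1.75e-27), with a counting interval of the ratio of 0.122 to 0.191. By unadjusted p it was at place 49 of the whole table, IL8 at place 68, CXCL1 at 112 and CSF3 at 165. Its ligand gene CXCL12 had 2 reads in the LKB1 line and 0 in the vector line. CXCR7, which encodes the other receptor of CXCL12, had 29 and 8 reads and did not pass (log2 fold 1.77, adjusted p = 0.0763). CXCR2, a receptor of the CXC chemokines above, was listed with no reads, CSF3R had 0 reads in the LKB1 line and 1 in the vector line, and CCR2 had 2 in each.

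**Figure D2:**
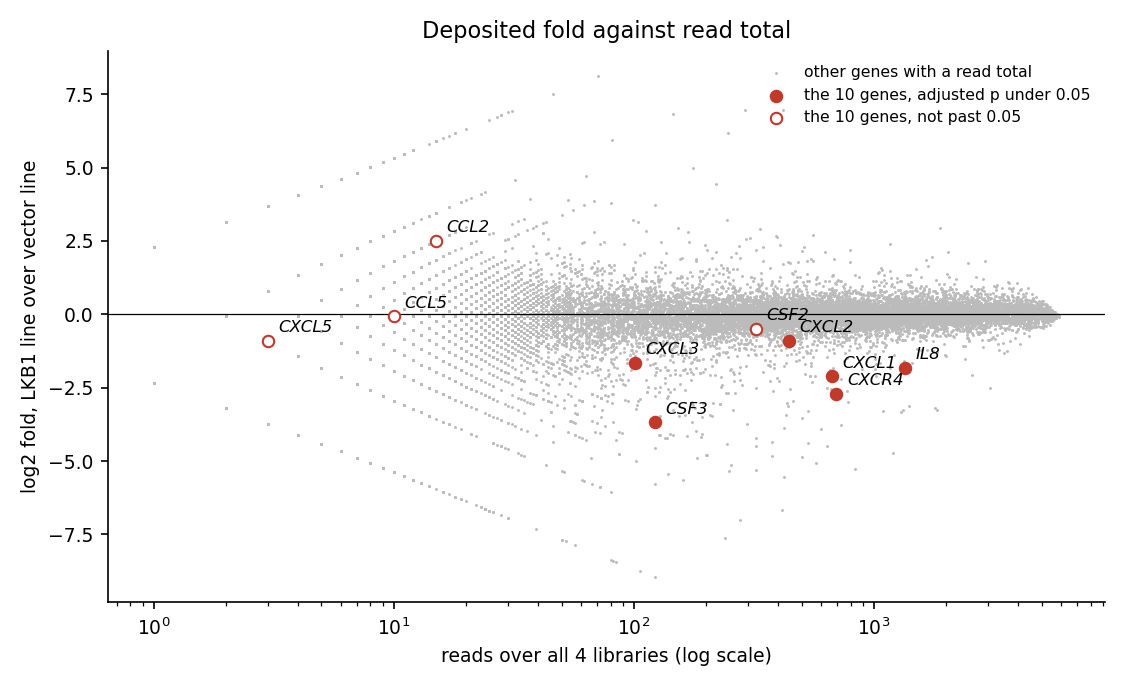
Deposited log2 fold (LKB1 line over vector line) against reads over all 4 libraries on a log axis, for genes with a recovered total (grey) and the 10 genes (red, filled where the adjusted p was under 0.05). CSF3 at -3.67 and CXCR4 at -2.70 lie lowest of the 10, and CXCL5, CCL5 and CCL2 lie among genes with 15 reads or fewer.

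Ordered by reads per kb of exon at the depth of the vector line, the levels in the LKB1 line were 167 for CSF2, 129 for IL8, 102 for CXCL2, 96.5 for CXCL1, 41.5 for CXCR4, 10.8 for CXCL3, 6.30 for CCL2, 3.90 for CSF3, 3.18 for CCL5 and 0.379 for CXCL5. In the vector line they were 457 for IL8, 417 for CXCL1, 271 for CXCR4, 235 for CSF2, 189 for CXCL2, 50.9 for CSF3, 34.2 for CXCL3, 3.31 for CCL5, 1.01 for CCL2 and 0.788 for CXCL5. By this measure CSF2 was first in the LKB1 line and behind IL8, CXCL1 and CXCR4 in the vector line. CXCR4 lay at percentile 49.3 of protein-coding genes in the LKB1 line and 86.4 in the vector line. The length used joins the exons of all annotated transcripts, and for CCL2 and CXCL3 it covers the whole gene. The order of genes within a line and the percentiles therefore also depend on annotation. The spread between libraries is not known for any of these levels, so neighbours in either order cannot be called different.

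How firmly the 6 falls stand depends on the variation between libraries, which the table does not give. The variation that would yield each deposited p from these totals was between 0.103 (IL8) and 0.179 (CXCL3). With 0.2 assumed for every gene in a negative binomial test on the totals, 5 of the 10 genes fell, against 2.31% of the 27299 genes with a total. CXCR4 (adjusted p = 5.85e-13) and CSF3 (adjusted p = 5.06e-11) were then the furthest past the threshold. With 0.4 assumed, CSF3 (adjusted p = 0.000509) and CXCR4 (adjusted p = 0.00445) still passed, and CXCL1 (adjusted p = 0.0627) and IL8 (adjusted p = 0.179) did not.

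**Figure D3:**
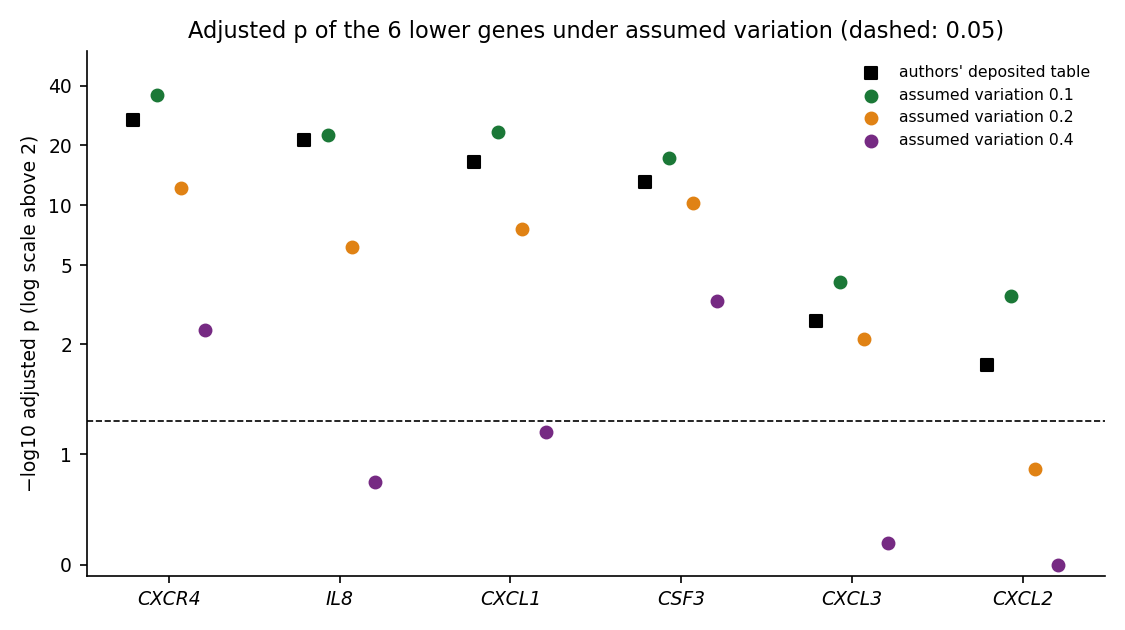
The −log10 adjusted p of the 6 lower genes in the authors' deposited table (squares) and in a negative binomial test with a variation of 0.1, 0.2 or 0.4 between libraries assumed (circles); the axis is linear up to 2 and logarithmic above. CXCR4 and CSF3 stay above the dashed line of 0.05 at all 3 variations.

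No other chemokine gene was called lower. Of 28 others measured, 18 had reads and 3 had at least 40, and the authors' deposited table called 0 lower and 2 higher. CX3CL1, fractalkine, rose by a log2 fold of 0.82 (312 reads in the LKB1 line and 170 in the vector line, adjusted p = 0.0110). CXCL16, the ligand of CXCR6, rose by 1.21 (92 and 38 reads, adjusted p = 0.0181). CCL20, the ligand of CCR6, had 6 reads in the LKB1 line and 24 in the vector line and did not pass (log2 fold -2.01, adjusted p = 0.109). CXCL10 and CXCL11, which are interferon-induced, had 11 and 22 reads in the LKB1 line, against 9 and 10 in the vector line, and were not called. CXCL6 and PPBP, which lie in the same cluster as IL8, were listed with no reads.

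Of 5 other haematopoietic growth factor genes 1 was higher and 0 lower. That was KITLG, stem cell factor, with 346 reads in the LKB1 line and 168 in the vector line (log2 fold 0.99, adjusted p = 5.7e-05 by the authors' deposited table). CSF1, the macrophage factor, was at a log2 fold of 0.14 (adjusted p = 1). Of 18 other chemokine receptor genes 1 was higher, CCRL2, an atypical receptor gene, with 668 reads in the LKB1 line and 411 in the vector line (log2 fold 0.64, adjusted p = 0.00768), and 0 were lower. Of 3 receptors of colony-stimulating factors CSF2RB, the beta chain of the GM-CSF receptor, was lower, with 4 and 22 reads (log2 fold -2.44, adjusted p = 0.0244). All 4 rises were lost with a variation of 0.2 assumed in the negative binomial test, at adjusted p of 0.0641 to 0.446. The fall of CSF2RB kept its call there (adjusted p = 0.0435).

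NF-kB genes, targets as well as regulators, and genes that act on mRNA half-life were read against the 6.86% of genes with at least 40 reads that were lower. Of 18 NF-kB subunits, inducers, feedback genes and targets 2 were lower and 0 higher in the authors' deposited table. Their median log2 fold was -0.22 over 17 genes with at least 40 reads, beside -0.02 over all 14387 such genes. IL1A, a cytokine that induces many chemokines, had 57 reads in the LKB1 line and 162 in the vector line (log2 fold -1.56, adjusted p = 9.89e-06). LIF, a cytokine gene and neither a subunit nor a feedback gene of NF-kB, had 417 and 696 (log2 fold -0.79, adjusted p = 0.000356). In the negative binomial test with a variation of 0.2 assumed, IL1A kept its call (adjusted p = 0.00124) and LIF lost it (adjusted p = 0.182). IL1B missed the threshold at -0.91 (adjusted p = 0.0560). NFKBIA and TNFAIP3, feedback inhibitors of NF-kB, were not called, at 0.12 (adjusted p = 1) and -0.54 (adjusted p = 0.146). IL6, an NF-kB target, had 413 and 315 reads and was not called (log2 fold 0.33, adjusted p = 0.532). Of 6 genes of this list whose promoter window also held the kappaB core (ICAM1, NFKB1, NFKBIA, NFKBIB, NFKBIZ and REL), none was called; ICAM1, a leukocyte adhesion molecule, came nearest at -0.41 (adjusted p = 0.0815).

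Of 10 genes for proteins that bind cytokine mRNAs, most of them at AU-rich elements, 2 were lower and 0 higher, at a median log2 fold of -0.13. TIA1 had 235 reads in the LKB1 line and 449 in the vector line (log2 fold -0.99, adjusted p = 3.2e-05 by the authors' deposited table). ZC3H12A, an RNase that degrades inflammatory mRNAs and is not a binder of AU-rich elements, had 500 and 731 (log2 fold -0.60, adjusted p = 0.0146). In the negative binomial test at a variation of 0.2, TIA1 only just passed (adjusted p = 0.0499) and ZC3H12A did not (adjusted p = 0.523). ZFP36, tristetraprolin, was not called (log2 fold -0.29, adjusted p = 0.840).

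**Figure D4:**
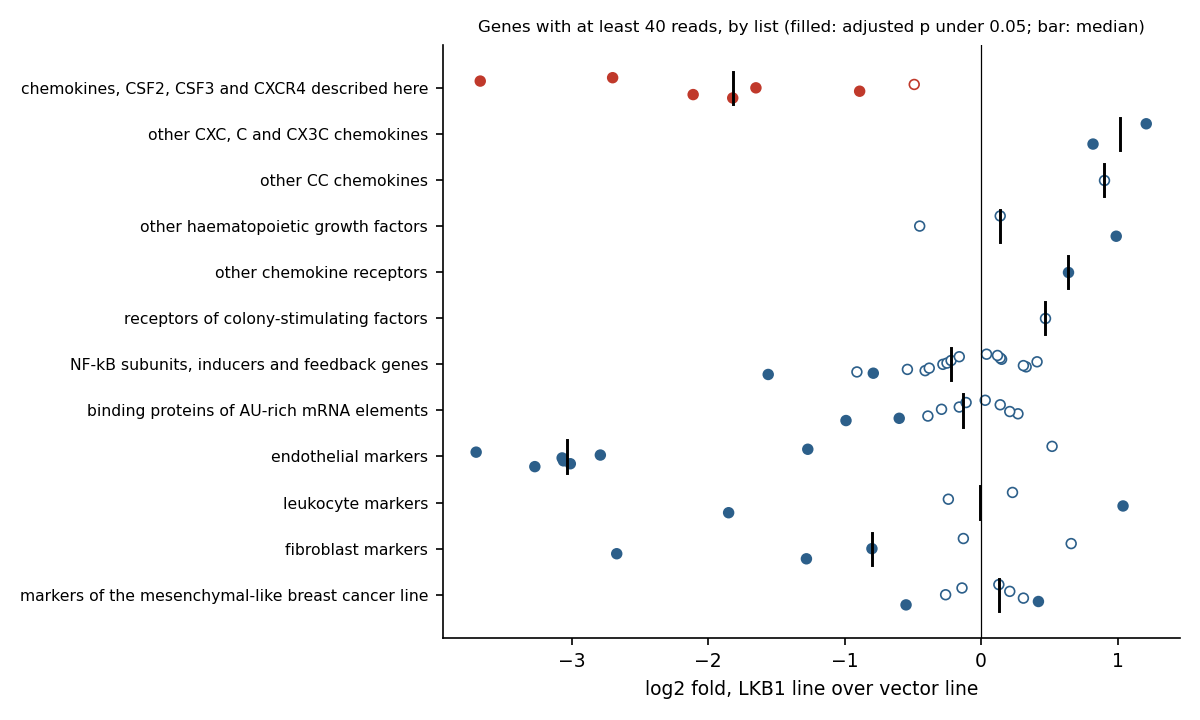
Deposited log2 folds (LKB1 line over vector line) of genes with at least 40 reads, by list; filled points passed an adjusted p of 0.05 and bars are medians. Points of 6 of the 7 genes in the top row are filled and below 0, and 7 of the 8 endothelial markers are filled and below 0.

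Most endothelial markers fell as well. Of 8 endothelial markers measured 7 were lower and 0 higher in the authors' deposited table, with a median log2 fold of -3.04. Their summed reads were 626 in the LKB1 line and 2296 in the vector line, and none was at 0. ESAM, a junction protein gene, had 129 and 1197 reads, VWF 25 and 203, CDH5 18 and 121, and TEK 4 and 53. KDR, a VEGF receptor gene, fell less, with 73 and 170 reads (log2 fold -1.27, adjusted p = 0.000618). EGFL7 was the one not called lower, with 336 reads in the LKB1 line and 225 in the vector line (log2 fold 0.52, adjusted p = 0.131). The folds of the 6 chemokine-related falls, at -3.67 to -0.89, overlapped those of the 7 lower markers, at -3.70 to -1.27. Of 7 fibroblast markers 3 were lower and 0 higher, with 577 reads in the LKB1 line and 824 in the vector line, and DCN was at 0. Of 7 leukocyte markers LCP1 was lower (log2 fold -1.85) and CD14 higher (log2 fold 1.04), and PTPRC, the pan-leukocyte marker, had 2 and 10 reads. As background, endothelial cells can also express CXCR4, IL8, CXCL1, CSF3 and CCL2. Of these CCL2 went the other way, with 13 reads in the LKB1 line and 2 in the vector line, and was not called. The part of other cells in the 6 falls was not tested.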

How the data were processed

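RNA was measured in 4 libraries in 2 groups, taken from the plasmid named in the labels. Per the submitters' processing notes, hg19, TopHat2 2.0.6, CASAVA 1.8.2 and edgeR 2.6.0 were used, in roles not stated. For read counting and use of strand, the tool and settings were not given in the sources used here. The authors deposited, per the file headers, a fold (a linear ratio) for each gene with its log2 value, and a p-value both raw and adjusted. The adjusted values are Benjamini-Hochberg over all 34675 genes, within 1.89e-06 of a recomputation, and calls use an adjusted p under 0.05.

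Each fold takes the form of whole reads plus a small prior per line. Priors of 0.254868 (LKB1) and 0.245132 (vector), summing to 0.5, resolved 27299 of 28242 genes with reads (96.7%) into totals of at most 3000 reads per line, within a relative tolerance of 1e-09. Of 14017 distinct folds 13079 resolved, against 106 and 103 with constants changed to 0.9997 and 1.0003 times. Totals per line carry no spread between libraries, and intervals (Clopper-Pearson for ratios and shares, exact Poisson for totals, 95%) cover counting error only. Depth per library is not known. Alternatives were a negative binomial test on totals with an assumed variation of 0.1, 0.2 or 0.4, other thresholds, read minimums of 40 and 200, and centring. The recovery and this test were tested on simulated data. Because the file holds no counts per library, a count model across libraries was not run.

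Exon lengths were the union of exons over all GENCODE 29 transcripts of a gene, matched by Ensembl identifier, or by symbol where that failed. Of the 16794 protein-coding genes ranked, 852 have no total and counted as above every gene with one. Motifs were searched 250 bases before the start. Named were all 10 genes, STK11, up to 6 called genes per other list, and genes with reads inside the chromosome 4 cluster. CDKN2A, neighbours outside the cluster, genes with a kappaB core and genes named although not called were chosen after their values were seen. The genes and lists were chosen with earlier results of these data known. Python 3.11.15, scipy 1.17.1 and pandas 2.3.3 were used.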

Additional observations from a re-analysis of the deposited data

How the results depend on the processing

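All settings but centring use the deposited folds, and centring shifts all genes alike by less than 0.01, so the settings test the calls and not the directions. The count of 6 lower genes stayed within 4 and 6 except with a variation of 0.4 assumed, where it was 2; with p adjusted over genes of at least 200 reads it was 4 because CXCL3 and CSF3 have fewer. Of the settings run for single genes, 65 left the call as it was and 7 lost it, 4 of these at a variation of 0.4. Part of the 65 was fixed in advance: centring keeps the deposited p, and CXCL5, CCL2, CCL5 and CSF2 had no call to lose. The 65 is therefore no measure of how firm the 6 falls are. Over all genes the 1123 lower calls became 691 at a fold of at least 2, 631 at a variation of 0.2 and 229 at 0.4. The 884 higher calls became 569 at an adjusted p under 0.01, 341 at a fold of at least 2, 280 at a variation of 0.2 and 52 at 0.4. In the other chemokine, growth factor, receptor and regulator lists the 5 lower calls became 3 at an adjusted p under 0.01, 2 at a fold of at least 2, and 9, 3 and 0 at variations of 0.1, 0.2 and 0.4. Their 4 higher calls became 2, 1, 0 and 0 at an adjusted p under 0.01, a fold of at least 2 and variations of 0.2 and 0.4. Why the counts at assumed variations differ from the deposited ones was not tested. Leaving out each library was not run, since the table holds no value per library. No paired analysis was possible because the table holds no value per library and the labels share no replicate number.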

Other observations

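Outside the chemokine genes, the kappaB core GGAATTTCC stood in the promoter windows of 54 genes with at least 40 reads, of which 4 were lower (7.41%) and 5 higher (9.26%) in the authors' deposited table, at a median log2 fold of -0.01. Of the 10405 such genes without the core 6.78% were lower and 5.68% higher. The lower ones were DUSP6, an ERK phosphatase gene (1097 reads in the LKB1 line and 2490 in the vector line, log2 fold -1.24), CACHD1 (30 and 119, -2.03), MSRB3 (475 and 829, -0.86) and SCARF2 (65 and 132, -1.08). The higher ones included COBLL1 (148 and 54 reads, 1.39), CCDC3 (239 and 99, 1.21) and the autophagy receptor gene OPTN (2257 and 1541, 0.49). With the 4 chemokine genes counted in, 8 of 58 were lower. The core was taken from the promoters of these chemokine genes, already called lower, so that count is no separate result about the core.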
